A study of Homo sapiens with 32 samples.

Results

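The epidermal growth factor receptor (EGFR) family and its ligands were followed in the established line MDA-MB-468, from a triple-negative breast cancer with amplified EGFR. The 10 genes were listed by name, and no threshold on a measured value entered the list: the receptors EGFR, ERBB2, ERBB3 and ERBB4, and the ligands TGFA, AREG, EREG, HBEGF, BTC and EGF. They are 10 of the 48804 genes of the deposited count table. Cells were exposed to PBS (control), to 0.5 μM salinomycin (Sal), to 15 μM dasatinib (Das), or to both drugs at these doses (S + D), for 24 h or 72 h. Every one of the 8 conditions has 4 libraries, described as biological replicates of this single line, so 32 libraries were compared. The question put to the data was how each drug, and the drugs together, changed the RNA of this receptor system, and whether the change differed between the time points.

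The 4 receptors are related tyrosine kinases of the cell surface that work as pairs. A ligand binds EGFR, ERBB3 or ERBB4 and brings receptors together, ERBB2 has no known soluble ligand of its own and serves as a partner, and ERBB3 has little kinase activity but docks phosphoinositide 3-kinase. The ligands are made as membrane proteins and are released by cell surface proteases, and in epithelium and breast carcinoma the system is known for driving growth and survival. Sal is an ionophore antibiotic and Das an inhibitor of SRC family and ABL kinases.

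Totals ran from 25692561 to 42769687 counts per library. A level in CPM is a gene's count scaled to a library of 1e6 counts after normalization between libraries, and, where genes are set beside each other, RPKM is used, which is CPM per kilobase of the gene's exons in the annotation. Among the 4 libraries of a condition 1 is unnumbered and the others are numbered 1 to 3. Deviations from the condition means were shared by the unnumbered libraries, with correlations across genes from 0.588 to 0.666 at 24 h and from 0.522 to 0.611 at 72 h. The labels name no batch. They set only the unnumbered libraries apart, 1 a condition, so values from the 3 numbered libraries are added where they change a call. Calls of higher or lower used the quasi-likelihood test of edgeR with p adjusted over all genes tested, and a threshold of 0.01. The RNA of a whole culture was measured, so fewer cells of a kind and less RNA per cell cannot be told apart. The epithelial genes KRT8, KRT18, KRT19, EPCAM and CDH1 were abundant in every condition, with means from 232 CPM (CDH1, Das at 24 h) to 2850 CPM (KRT19, control at 72 h). PGR had at most 3 counts in a library, ESR1 had means from 5.42 to 9.98 CPM, and the blood cell genes PTPRC and CD3E had at most 5 counts. Of the fibroblast genes, COL1A2 and COL3A1 had at most 2 counts in any library, while COL1A1 had means from 25.3 CPM in the control at 24 h to 87.1 CPM with S + D at 72 h, and PDGFRB from 0.103 CPM with Sal at 24 h to 1.23 CPM with S + D at 72 h. Of the basal genes, KRT5 had means from 43.99 CPM with Sal at 72 h to 868 CPM in the control at 24 h, and VIM from 9.40 CPM in the control at 24 h to 101 CPM with S + D at 72 h.

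In untreated cells EGFR was the dominant member. Its mean was 301.5 RPKM ± 5.74 (SD, n = 4) in the control at 24 h, rank 54 of 31911 genes with a length, and 353.7 RPKM ± 21.2 in the control at 72 h, rank 46. EGFR alone took between 0.466% and 0.476% of all counts in the control libraries at 24 h. Per kilobase, EGFR was 27.1 ± 0.868 times ERBB2 and 22.9 ± 1.51 times ERBB3 (SD over 4 control libraries at 24 h). ERBB3, at 13.2 RPKM ± 1.04, ERBB2, at 11.1 RPKM ± 0.329, and the ligand TGFA, at 10.8 RPKM ± 1.06, came next. The ranges of ERBB2 and TGFA overlapped at both times, and those of ERBB3 and ERBB2 overlapped at 72 h but not at 24 h. BTC (1.07 RPKM), HBEGF (1.05 RPKM) and EGF (0.914 RPKM) followed about an order of magnitude lower, with overlapping ranges at 24 h. EREG (0.0442 RPKM), AREG (0.0407 RPKM) and ERBB4 (0.00196 RPKM) were at the bottom of the order, each overlapping its neighbour. TGFA thus made up 77.6% ± 2.27 of the summed RPKM of the 6 ligands, as counted, in the control at 24 h. AREG could not be measured, as described below, so its place in the order and its part in this sum are not known.

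**Figure D1:**
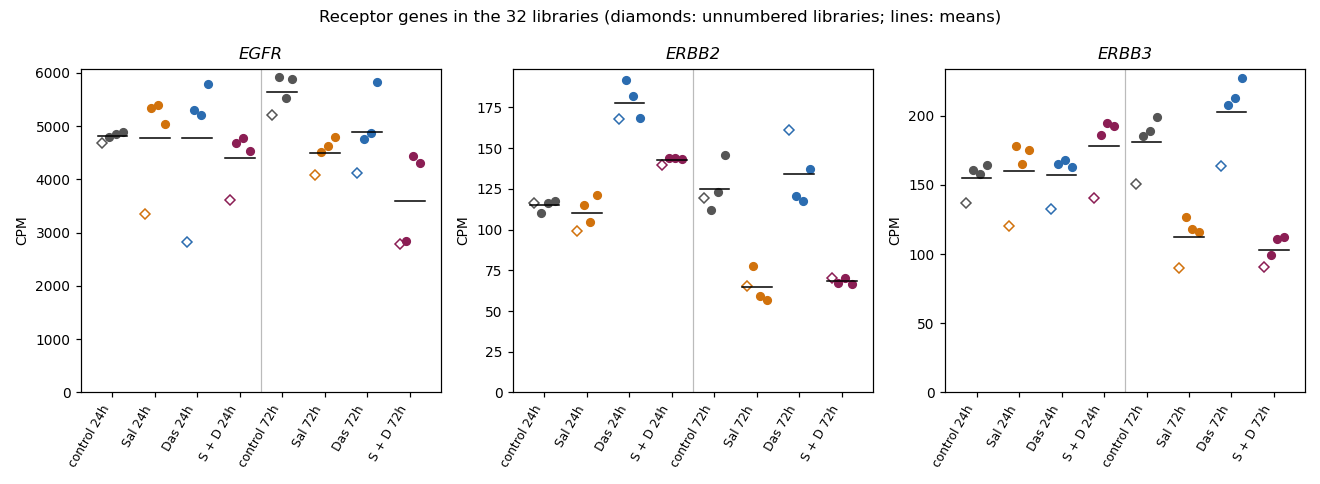
CPM of EGFR, ERBB2 and ERBB3 (vertical axes, from 0) in each of the 32 libraries by condition, with diamonds for the unnumbered libraries, circles for the numbered libraries and lines for the means of 4. ERBB2 and ERBB3 lie below all controls in the Sal and S + D libraries at 72 h, while at 24 h ERBB2 lies above all controls with Das and S + D.

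ERBB2 was higher at 24 h and lower at 72 h. At 24 h ERBB2 was higher with Das and with S + D, and no receptor was lower. At 72 h ERBB2 and ERBB3 were lower with Sal and with S + D, EGFR was lower with S + D, and no receptor was called with Das. Of the 8 members that passed the filter on low counts, Sal at 24 h had 0 called higher and 0 lower in edgeR, beside 4.55% and 2.23% of all tested genes. With Das at 24 h, 2 members (ERBB2 and HBEGF) were higher and 0 lower, beside 6.99% and 6.88% of all genes. S + D at 24 h likewise had ERBB2 and HBEGF higher and 0 members lower, beside 17.1% and 16.5%. The count for S + D at 24 h depended on the model. A term for the unnumbered libraries gave 6 members called, where 4414 of 16357 genes were higher and 4195 lower. A replicate block gave 5, where 4201 genes were higher and 4014 lower. At 72 h Sal had 2 of the 8 higher and 2 lower, close to the 26.3% and 26.8% of all genes. Das had 1 higher and 0 lower, beside 10.5% and 9.36%, and S + D had 2 higher and 4 lower, beside 27.0% and 27.9%. Broad changes of the transcriptome at 72 h are therefore the setting of the values that follow. With Sal at 24 h, 0 members had an unadjusted p under 0.05 and DESeq2 called 0.

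ERBB2 (ENSG00000141736, chr17:37844167-37886679 in GRCh37) encodes the HER2 receptor. At 24 h its 4 control libraries had 116, 110, 116 and 117.5 CPM, in the order unnumbered, 1, 2 and 3, which is kept below. The Das libraries had 168, 192, 182 and 168 CPM, and the S + D libraries 139, 144, 144 and 143 CPM. Both sets lay above every control, and the Das libraries lay above every S + D library. The log2 fold change was 0.65 (SE 0.08, adjusted p = 2.01e-05) with Das and 0.34 (SE 0.08, adjusted p = 0.00181) with S + D. Sal at 24 h gave -0.07 (SE 0.08). Markers moved at 24 h as well. Of the 5 epithelial genes, 2 were lower with Das (KRT8 and KRT19) and 4 with S + D (all but CDH1, median -1.03), and the KRT8 call with Das held with 1 of the 8 libraries left out in turn. Of the 4 basal genes, KRT5 and KRT14 were lower and VIM higher with both, the VIM call with Das holding with 4 of the 8 left out. COL1A1 was higher with S + D, a call that held with 1 of the 8 left out. Their part in the ERBB2 and HBEGF values at 24 h was not tested. The S + D call at 24 h was lost without control library 1 (log2 fold change 0.30, adjusted p = 0.0131).

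At 72 h the picture for ERBB2 differed. Control libraries had 119.5, 112, 123 and 146 CPM, Das libraries 161, 121, 117 and 137 CPM, Sal libraries 65.4, 77.9, 59.2 and 56.8 CPM, and S + D libraries 70.01, 66.9, 70.2 and 66.7 CPM. Every Sal and S + D library was below every control and every Das library, and Das overlapped the control. Of the 5 epithelial genes, KRT8, KRT18 and KRT19 were also lower with Sal and with S + D at 72 h, and KRT18 and KRT19 with Das. Of the 4 basal genes, KRT5 and KRT14 were lower with all 3 treatments, VIM was higher with Sal and S + D, and KRT17 was higher with S + D. Of the 4 fibroblast genes, COL1A1 was higher with Sal and S + D and PDGFRB with S + D (2.41, SE 0.71, adjusted p = 0.00621). PDGFRB did not pass the filter on low counts at 24 h, and at 72 h the controls alone (mean 0.0315 RPKM) would not have passed it. The calls for KRT17 and PDGFRB held with 2 of the 8 libraries left out in turn, and with Sal those for KRT18 and VIM held with 5 and 4. The part of these markers in the values of the receptors and ligands at 72 h was not tested. ERBB2 fell by 0.97 on the log2 scale (SE 0.13, adjusted p = 4.15e-06) with Sal, which is 1.95-fold, and by 0.89 (SE 0.13, adjusted p = 9.44e-06) with S + D. Das alone gave 0.09 (SE 0.13, adjusted p = 0.604). S + D and Sal overlapped, with a difference of 0.08 (SE 0.13, adjusted p = 0.769).

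ERBB3 (ENSG00000065361, chr12:56470583-56497289) is the receptor that docks phosphoinositide 3-kinase. Its control libraries at 72 h had 151, 186, 189 and 199 CPM, the Sal libraries 89.7, 127, 118.5 and 116 CPM, the Das libraries 164, 208, 213 and 227 CPM, and the S + D libraries 90.4, 99.2, 111 and 112 CPM. The Sal and S + D libraries lay below all controls, and the unnumbered library was the lowest of each of these sets. ERBB3 fell by 0.70 (SE 0.13, adjusted p = 0.000183) with Sal and by 0.83 (SE 0.13, adjusted p = 3.46e-05) with S + D. With Das the value was 0.16 (SE 0.13, adjusted p = 0.384). At 24 h none of the treatments passed the test for ERBB3. There, S + D gave 0.24 (SE 0.14, adjusted p = 0.171) over all libraries and 0.26 (adjusted p = 5.99e-05) over the numbered libraries. The numbered S + D libraries had 186, 195 and 192 CPM against 161, 158 and 164 CPM in the control. With the replicate block S + D gave 0.23 (adjusted p = 0.0081), which passed.

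EGFR (ENSG00000146648, chr7:55086710-55279321) stayed among the most abundant RNAs throughout. At 72 h the control libraries had 5204, 5923, 5535 and 5890 CPM, and the S + D libraries 2793, 2841, 4443 and 4301 CPM. All S + D libraries were below all controls, and the unnumbered library and library 1 were well below the other two. EGFR fell by 0.67 on the log2 scale with S + D (SE 0.15, adjusted p = 0.00101), a 1.59-fold difference that stayed called without any single library (from -0.78 to -0.52). The Sal libraries, with 4085, 4512, 4630 and 4786 CPM, were also below all controls, and the log2 fold change of -0.34 (SE 0.15, adjusted p = 0.0593) did not pass. Das libraries had 4117, 4753, 4874 and 5818 CPM and overlapped the control (-0.21, SE 0.15). At 24 h the unnumbered library stood far below the other 3 in every treatment: 3345 CPM against 5031 to 5399 with Sal, 2830 against 5208 to 5795 with Das, and 3614 against 4523 to 4768 with S + D, while the 4 controls lay between 4685 and 4895. At 24 h the log2 fold change of EGFR was -0.01 for Sal, 0.01 for Das and -0.09 for S + D (SE 0.19 each). Over the numbered libraries Das gave 0.20 (adjusted p = 0.00181), which passed, and Sal 0.13 (adjusted p = 0.0385).

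ERBB4 (ENSG00000178568, chr2:212240442-213403565), the receptor for neuregulins, was at the floor of these data. The highest count in any of the 32 libraries was 2, and the 16 libraries with Das or S + D all had 0. Exact two-sided permutation tests of the mean CPM gave p from 0.429 to 1 in the 6 comparisons with control, where 0.0286 is the smallest p that 4 against 4 libraries allow. A count of 0 or close to it leaves levels below 3 counts per library undetected.

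**Figure D2:**
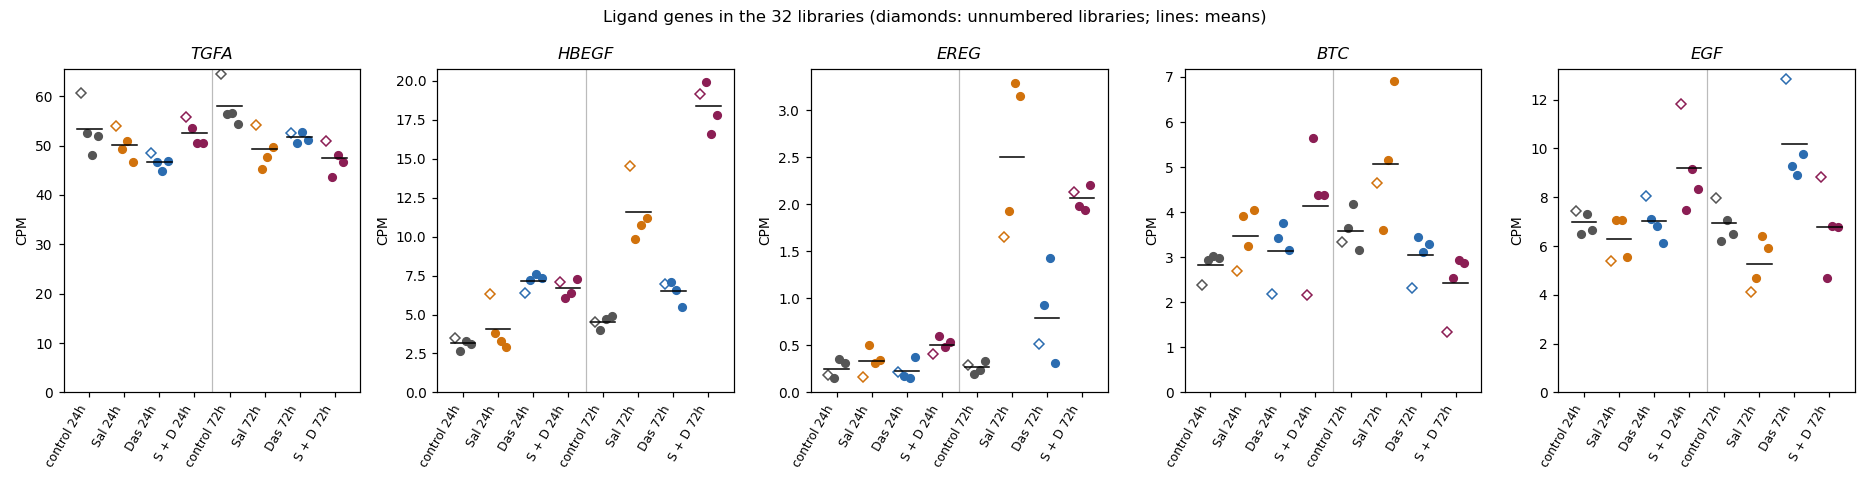
CPM of TGFA, HBEGF, EREG, BTC and EGF (vertical axes, from 0) in each of the 32 libraries by condition, with diamonds for the unnumbered libraries, circles for the numbered libraries and lines for the means of 4. HBEGF lies above all controls with every treatment at 72 h, and EREG does so with Sal and S + D.

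Among the ligands, HBEGF and EREG rose and TGFA fell, the last by a small amount. HBEGF was higher with Das and S + D at 24 h and with Sal and S + D at 72 h. EREG was higher with each treatment at 72 h, from a control level near the limit of detection and under the filter on low counts. Both are membrane-anchored ligands that can bind EGFR and ERBB4. They are the members that passed the study's second cutoff, an absolute log2 fold change above 1.5, at 72 h: EREG with all 3 treatments and HBEGF with S + D.

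Since HBEGF and EREG moved furthest, the 250 bases before their annotated starts are shown, from RefSeq on GRCh38.p14. Capitals mark matches to the 4 motifs searched on both strands: TGANTCA (the AP-1 motif), TGACGTCA (the cyclic AMP response element), GGGCGG (the GC box) and GCGTGGGCG (the EGR1 motif). The EREG stretch lies at chr4:74364895-74365144 on the plus strand and the HBEGF stretch at chr5:140346604-140346853 on the minus strand, both written 5′ to 3′ along the gene.
EREG: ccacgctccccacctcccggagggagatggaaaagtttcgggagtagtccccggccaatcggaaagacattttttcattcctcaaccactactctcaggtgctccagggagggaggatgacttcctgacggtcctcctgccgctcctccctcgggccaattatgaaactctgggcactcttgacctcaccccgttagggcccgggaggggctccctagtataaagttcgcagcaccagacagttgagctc
HBEGF: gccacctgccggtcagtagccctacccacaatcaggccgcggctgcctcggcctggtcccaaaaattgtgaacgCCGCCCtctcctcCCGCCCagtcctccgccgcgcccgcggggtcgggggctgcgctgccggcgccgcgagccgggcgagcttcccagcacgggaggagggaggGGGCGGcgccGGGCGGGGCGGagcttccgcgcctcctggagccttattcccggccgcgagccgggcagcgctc
The HBEGF stretch held 5 matches to the GC box, of which the last 2 share a base, and none to the other motifs. No match to any of the 4 was found in the EREG stretch. Of all 35116 promoter stretches of this length, 42.6% held a GC box, 6.57% the AP-1 motif, 1.65% the cyclic AMP motif and 0.72% the EGR1 motif. The stretches also differed in base composition, with 76.4% G and C before HBEGF and 58% before EREG. Such matches describe letters and not binding.

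HBEGF (ENSG00000113070, chr5:139712428-139726188) encodes heparin-binding EGF-like growth factor. At 24 h its control libraries had 3.48, 2.66, 3.29 and 3.14 CPM, the Das libraries 6.35, 7.21, 7.61 and 7.32 CPM, and the S + D libraries 7.06, 6.09, 6.36 and 7.30 CPM. The Das and S + D libraries were all about 2 times the controls, with no overlap. The log2 fold change was 1.20 (SE 0.19, adjusted p = 0.000234) with Das and 1.12 (SE 0.19, adjusted p = 0.00016) with S + D. Sal at 24 h gave 0.36 (SE 0.19, adjusted p = 0.238), and its unnumbered library, at 6.305 CPM, was above the others, which lay between 2.89 and 3.801 CPM.

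HBEGF was ordered by treatment at 72 h. Control libraries had 4.50, 4.02, 4.71 and 4.89 CPM, Das libraries 6.93, 7.06, 6.58 and 5.50 CPM, Sal libraries 14.5, 9.87, 10.8 and 11.2 CPM, and S + D libraries 19.2, 19.9, 16.55 and 17.8 CPM. None of these 4 ranges overlapped another. The log2 fold change was 2.00 (SE 0.15, adjusted p = 9.32e-09) with S + D and 1.335 (SE 0.14, adjusted p = 5.36e-07) with Sal. With Das it was 0.52 (SE 0.14, adjusted p = 0.0106), just short of the threshold, and it passed without Das library 3 (0.61, adjusted p = 0.00251).

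EREG (ENSG00000124882, chr4:75230862-75254466) encodes epiregulin. At 72 h its control libraries held 11, 6, 9 and 12 counts, or 0.296, 0.201, 0.238 and 0.334 CPM. The Sal libraries held 65, 55, 99 and 89 counts (1.65, 1.93, 3.29 and 3.15 CPM), and the S + D libraries 76, 62, 74 and 74 counts (2.13, 1.985, 1.94 and 2.21 CPM). All of them were far above the controls. The log2 fold change was 3.18 (SE 0.39, adjusted p = 2.09e-06), a 9.06-fold rise, with Sal, and 2.91 (SE 0.39, adjusted p = 4.95e-06), 7.50-fold, with S + D. Das libraries held 21, 30, 40 and 10 counts (0.514, 0.933, 1.43 and 0.311 CPM), so that library 3 lay within the controls. The Das value of 1.52 (SE 0.41, adjusted p = 0.0085) passed over all libraries and not over the numbered ones (1.74, adjusted p = 0.0111), and it was 1.12 (adjusted p = 0.0436) without Das library 2 and 1.80 (adjusted p = 0.000959) without Das library 3. The call was lost without Das library 1 or 2 or any 1 of the 4 controls. EREG entered the tests at 72 h through its treated libraries, and without the filter on low counts it was also called higher with each treatment. At 24 h EREG held between 5 and 20 counts in every library, and S + D gave 1.04 (SE 0.36, adjusted p = 0.0268), which did not pass although its libraries, from 0.410 to 0.603 CPM, lay above the controls, from 0.151 to 0.357 CPM.

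TGFA (ENSG00000163235, chr2:70674416-70781325), transforming growth factor alpha, was the most abundant per kilobase of the listed ligands in every condition, AREG aside, which could not be measured. Its control libraries at 72 h had 64.6, 56.3, 56.5 and 54.3 CPM and its S + D libraries 51.0, 43.7, 48.2 and 46.7 CPM. The sets did not overlap, and TGFA fell by 0.31 on the log2 scale (SE 0.09, adjusted p = 0.00861). That call was lost with each of the 8 libraries left out in turn (from -0.33 to -0.25, adjusted p from 0.0103 to 0.0361) and over the numbered libraries (-0.29, adjusted p = 0.01). Sal at 72 h gave -0.25 (SE 0.09, adjusted p = 0.0264) and Das -0.17 (SE 0.09, adjusted p = 0.172). The Sal value was called in 3 of 8 alternatives, among them the replicate block (adjusted p = 0.00874). The S + D value was called in 5 of 8. TGFA with Sal and with S + D is thus near the threshold. At 24 h the means of the 4 conditions lay between 46.7 and 53.3 CPM and no comparison passed.

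BTC (ENSG00000174808, chr4:75669969-75719733), betacellulin, binds EGFR and ERBB4. At 72 h its control libraries had 3.34, 3.65, 4.18 and 3.17 CPM, the Sal libraries 4.65, 3.61, 5.15 and 6.91 CPM, and the S + D libraries 1.35, 2.53, 2.93 and 2.86 CPM. S + D lay below control and Sal did not separate from it. Neither passed the test, with -0.58 (SE 0.24, adjusted p = 0.0408) for S + D and 0.48 (SE 0.24, adjusted p = 0.0816) for Sal. At 24 h S + D gave 0.59 (SE 0.25, adjusted p = 0.0632) over all libraries and passed with 0.70 (adjusted p = 0.000137) over the numbered ones, the unnumbered S + D library being the lowest at 2.17 CPM against 4.37 to 5.64.

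EGF (ENSG00000138798, chr4:110834039-110934922), the ligand that gives the family its name, was not called against control at either time. Its control libraries at 72 h had 7.97, 6.19, 7.06 and 6.51 CPM, the Das libraries 12.8, 9.265, 8.90 and 9.79 CPM, and the Sal libraries 4.12, 4.69, 6.41 and 5.92 CPM. The Das libraries lay above all controls (0.55, SE 0.19, adjusted p = 0.0369) and the Sal libraries overlapped them (-0.41, SE 0.20, adjusted p = 0.0759). At 24 h S + D gave 0.43 (SE 0.15, adjusted p = 0.0265), with all 4 libraries, from 7.48 to 11.8 CPM, above the controls, from 6.48 to 7.43 CPM.

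AREG (ENSG00000109321, chr4:75310853-75320722), amphiregulin, could not be measured from this table. The GRCh37 genome holds a near-identical copy, AREGB, 159.9 kb further along chromosome 4. Of the 1348 windows of 50 bases in the exons of AREG, the read length of the study, 1316 (97.6%) also occur in AREGB, so that a read from almost anywhere in the RNA has 2 exact places. AREG had from 0 to 5 counts in the 32 libraries and AREGB had 0 in all of them. How reads with more than 1 place were counted is not given in the sources used here, so these counts set no upper limit for amphiregin RNA. Exact two-sided permutation tests of AREG gave p from 0.143 to 1. A stretch of coding sequence that both copies share is shown to make the point, from the reference genome at chr4:75312350-75312399 for AREG and chr4:75482105-75482154 for AREGB, plus strand.
AREG: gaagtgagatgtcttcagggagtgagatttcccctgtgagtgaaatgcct
AREGB: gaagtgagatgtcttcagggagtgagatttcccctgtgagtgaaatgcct

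**Figure D3:**
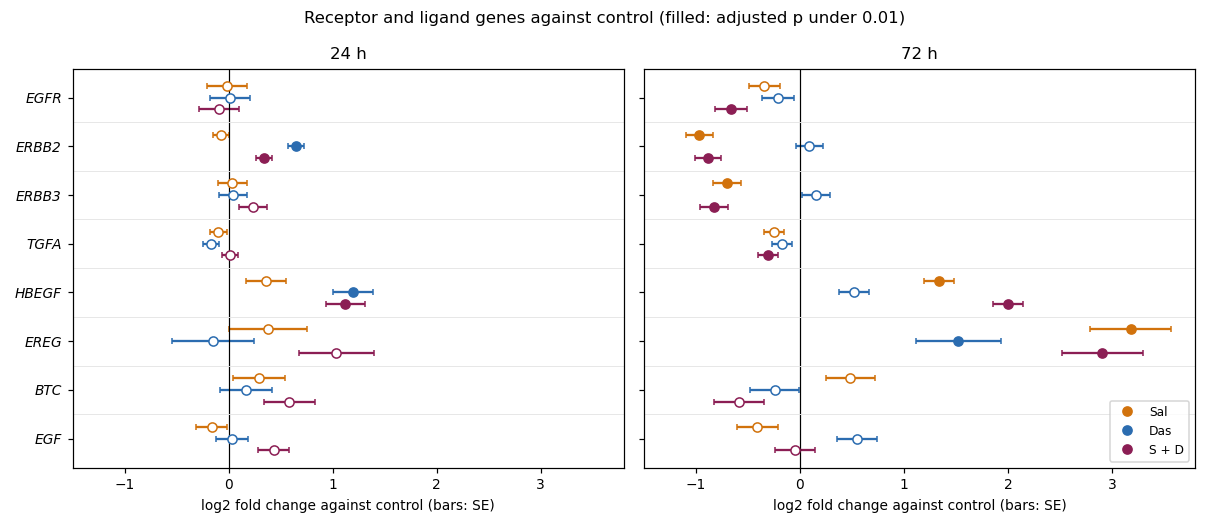
Log2 fold change against the control of the same time (horizontal axes) of the 8 members that passed the filter, at 24 h and at 72 h, with bars for the SE and filled points for an adjusted p under 0.01. ERBB2 is right of 0 with Das and S + D at 24 h and left of 0 with Sal and S + D at 72 h, and EREG has the largest values.

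The makeup of the ligand RNA is given next, as a description. The summed RPKM of the 6 ligands was 15.6 ± 0.975 in the control at 72 h and 18.0 ± 0.599 with S + D (SD, n = 4). Within that sum TGFA made up 75.3% ± 1.75 in the control, 68.6% ± 1.29 with Das, 59.2% ± 2.21 with Sal and 53.6% ± 2.16 with S + D. HBEGF made up 9.72% ± 1.03 in the control, 14.2% ± 1.28 with Das, 22.8% ± 2.41 with Sal and 34.2% ± 2.77 with S + D. Per kilobase, TGFA exceeded HBEGF 7.82 ± 0.956 times in the control and 1.58 ± 0.180 times with S + D. EREG remained a small part, at 2.60% ± 0.845 with Sal and 2.01% ± 0.107 with S + D against 0.300% ± 0.0690 in the control. The amount of AREG is missing from these sums. On the receptor side EGFR held between 90.9% ± 0.865 (Das) and 94.7% ± 0.531 (Sal) of the summed RPKM of the 4 receptors at 72 h.

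**Figure D4:**
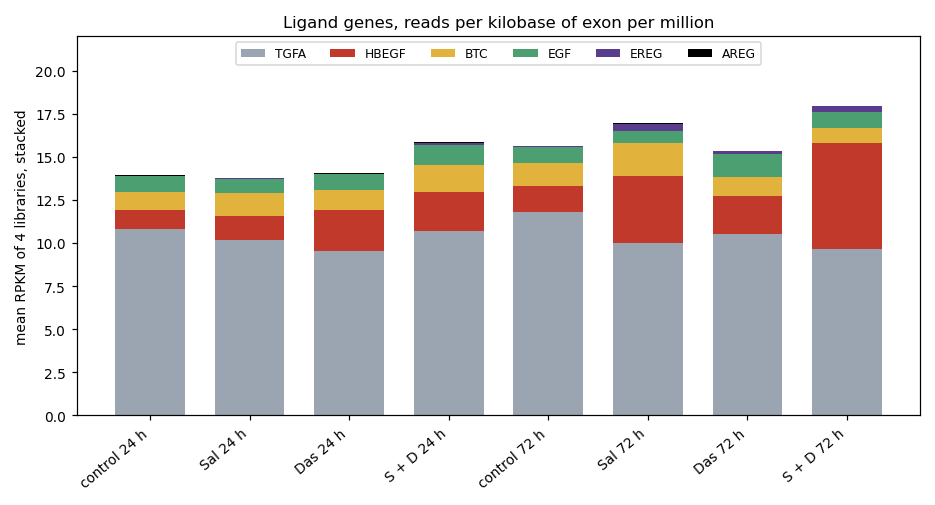
Mean RPKM of 4 libraries for the 6 ligands, stacked by condition (vertical axis from 0). TGFA is the largest segment in every condition, and the HBEGF segment is largest with S + D at 72 h, where it makes up 34.2% of the sum.

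Setting the treatments against each other at 72 h asked which drug a change went with. In S + D against Das, 4 of the 8 members were called (32.1% of all genes): ERBB2 (-0.98, SE 0.13) and ERBB3 (-0.98, SE 0.13) were lower, and HBEGF (1.48, SE 0.14) and EREG (1.38, SE 0.35) higher. The EREG call was not made over the numbered libraries (1.20, adjusted p = 0.0155), nor without the unnumbered Das library (1.24, adjusted p = 0.0112), Das library 3 (1.15, adjusted p = 0.0102) or S + D library 3 (1.35, adjusted p = 0.0101). EGFR, at -0.45 (SE 0.15, adjusted p = 0.022), passed without S + D library 2 (-0.57, adjusted p = 0.00847). Conversely EGF, at -0.60 (SE 0.19, adjusted p = 0.0186) over all libraries, was called lower over the numbered ones (-0.62, adjusted p = 0.00716) and without the unnumbered S + D library (-0.72, adjusted p = 0.00787). In Sal against Das, 5 of the 8 were called (32.2% of all genes). ERBB2 (-1.06, SE 0.13), ERBB3 (-0.86, SE 0.13) and EGF (-0.96, SE 0.20, adjusted p = 0.000789) were lower with Sal. EREG (1.66, SE 0.35) and HBEGF (0.82, SE 0.14) were higher with Sal. EGF is thus a member that separated the drugs from each other without being called against control by either.

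S + D against Sal called 1 of the 8 members (3.01% of all genes). HBEGF was higher with S + D by 0.66 (SE 0.14, adjusted p = 0.00689), and all 4 of its S + D libraries lay above all Sal libraries. That call held with 1 of the 8 libraries left out, the unnumbered Sal library (0.79, adjusted p = 0.0017), and was lost with each of the others (adjusted p up to 0.0286). BTC was lower in every S + D library than in every Sal library, with -1.07 (SE 0.24, adjusted p = 0.0108), which did not pass and did so without Sal library 1 (-1.20, adjusted p = 0.0088). The other differences between S + D and Sal ran from -0.32 (EGFR, SE 0.15) to 0.37 (EGF, SE 0.20). For ERBB3 the difference was -0.13 (SE 0.13).

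Whether the drugs together gave the sum of their single responses was asked with an interaction term, in log2 units, whose value is 0 for the sum. None of the 8 members was called in edgeR (7.52% of all genes were), and 2 members, EREG and BTC, had an unadjusted p under 0.05. EREG had -1.80 (SE 0.52, adjusted p = 0.0235), that is, a response below the sum of 3.18 and 1.52, and it was the 1 member that DESeq2 called. It passed in edgeR without Das library 3 (-2.06, adjusted p = 0.0037). BTC had -0.82 (SE 0.34, adjusted p = 0.0971). HBEGF (0.15, SE 0.20), ERBB2 (-0.01, SE 0.18), ERBB3 (-0.28, SE 0.19) and EGFR (-0.11, SE 0.22) had values within 2 SE of 0.

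Time was examined in a fit of all 32 libraries. Between the controls at 72 h and 24 h none of the 8 members was called in edgeR, beside 2.76% of all genes, 1 had an unadjusted p under 0.05 and DESeq2 called 0. HBEGF came nearest, at 0.53 (SE 0.17, adjusted p = 0.0568), and it passed over the numbered libraries (0.58, adjusted p = 0.0037). The response to Sal differed between the times for 4 of the 8 (21.9% of all genes): it was lower at 72 h for ERBB2 (-0.88, SE 0.14, adjusted p = 2.65e-05) and ERBB3 (-0.73, SE 0.19, adjusted p = 0.00355), and higher for EREG (2.81, SE 0.56, adjusted p = 0.000295) and HBEGF (0.98, SE 0.24, adjusted p = 0.00201). The ERBB3 call was lost without the unnumbered control library at 24 h (adjusted p = 0.0104) and without Sal library 1 (0.0109) or 3 (0.01) at 24 h. The same 4 members were called for the response to S + D (16.3% of all genes). ERBB2 there had -1.18 (SE 0.14, adjusted p = 9.62e-07), which joins its rise at 24 h with its fall at 72 h, and ERBB3 had -1.01 (SE 0.19, adjusted p = 0.000227). HBEGF had 0.93 (SE 0.24, adjusted p = 0.00399), and was lost without control library 1 at 72 h (0.87, adjusted p = 0.0109). EREG had 1.92 (SE 0.55, adjusted p = 0.00924), and it did not pass over the numbered libraries (1.99, adjusted p = 0.0137) or with any library left out other than control library 1 at 24 h (from 1.69 to 2.07, adjusted p up to 0.0359). EGFR, at -0.52 (SE 0.25, adjusted p = 0.114) for S + D, passed over the numbered libraries (-0.53, adjusted p = 0.00949). BTC, at -1.12 (SE 0.35, adjusted p = 0.0168), passed over the numbered libraries (-1.09, adjusted p = 0.00124), without the unnumbered S + D library at 24 h (-1.35, adjusted p = 0.00196), with the replicate block (adjusted p = 0.00116) and with DESeq2.

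For Das the response of no member differed between the times over all libraries (0.226% of all genes did), while 4 had an unadjusted p under 0.05 and DESeq2 called 0. ERBB2 gave -0.53 (SE 0.14, adjusted p = 0.0626) and HBEGF -0.65 (SE 0.24, adjusted p = 0.169). ERBB2 passed without the unnumbered Das library at 72 h (-0.67, adjusted p = 0.00899). Both passed over the numbered libraries, with -0.70 (adjusted p = 0.00512) for ERBB2 and -0.81 (adjusted p = 0.00722) for HBEGF. Thus the ERBB2 and HBEGF values with Das were smaller at 72 h than at 24 h in both fits.

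Ligands of the family outside the 10 genes were NRG1 and NRG3, with at most 1 count in any library, NRG4, with at most 8 counts, and EPGN and NRG2, which were tested. EPGN (epigen, an EGFR ligand) lies beside EREG on chromosome 4 and rose with Sal (2.22, SE 0.63, adjusted p = 0.00511) and S + D (2.56, SE 0.62, adjusted p = 0.00156) at 72 h, from a control mean of 0.196 CPM. With that mean, the controls of EPGN alone would not have passed the filter on low counts. The Sal libraries of EPGN overlapped the controls, and the call with Sal held with 4 of the 8 libraries left out in turn. NRG2, a neuregulin for ERBB3 and ERBB4, fell from 1.75 CPM ± 0.591 in the control at 72 h to 0.272 CPM with Das (-2.68, SE 0.44, adjusted p = 0.000224). With Sal it fell to 0.0736 CPM (-4.56, SE 0.53, adjusted p = 1.24e-06). That mean is near 3 counts per library, so the size of the fall with Sal is uncertain. No S + D library at 72 h held more than 2 counts of NRG2. It was therefore at least 20.1-fold lower against 3 counts per library. At 24 h EPGN was also called higher with S + D, and NRG2 was called lower with Das and with S + D.

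The 10 genes of ligand shedding and transport were mixed. With S + D at 72 h, 1 of the 9 tested was higher and 3 were lower (median log2 fold change -0.39, beside 0.012 for all genes), where 27.0% and 27.9% of all genes were called. ADAM17, the protease that releases TGFA, HBEGF, EREG and AREG, rose by 0.86 (SE 0.14, adjusted p = 4.54e-05) with S + D and 0.85 (SE 0.14, adjusted p = 5.66e-05) with Sal at 72 h. RHBDF2 is an inactive rhomboid that helps ADAM17 mature. It fell by 1.97 (SE 0.16, adjusted p = 4.01e-08) with Sal and by 0.96 (SE 0.16, adjusted p = 0.000211) with Das. With S + D its log2 fold change was -1.496 (SE 0.16, adjusted p = 3.59e-07). The difference of RHBDF2 between S + D and Sal, 0.48 (SE 0.16, adjusted p = 0.0711), did not pass. RHBDF1, the other inactive rhomboid of the list, was not called against control at either time. In the control at 72 h RHBDF1 had 6.3 RPKM and RHBDF2 6.5 RPKM. RHBDL2, a rhomboid protease that can cleave EGF, fell by 2.09 (SE 0.18) with Sal and by 2.21 (SE 0.18) with S + D. ADAM10, which releases EGF and BTC, fell by 0.64 with S + D (SE 0.11, adjusted p = 9.51e-05).

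Adaptors and proximal effectors counted 15 genes, all tested. At 72 h 1 was higher and 6 were lower with Sal (median -0.25, beside 0.004 for all genes), where 26.3% and 26.8% of all genes were called. The same numbers were found with S + D (27.0% and 27.9% of all genes), and Das had 1 in each direction (10.5% and 9.36%). The gene that rose was NCK1, an SH2 adaptor, in each treatment at both times, with 0.65 (SE 0.14) for S + D at 72 h. In the other direction, GRB7 was lower with Das and S + D at both times, and PLCG1 with Sal and S + D at both times. PIK3R1, the regulatory subunit of phosphoinositide 3-kinase that ERBB3 recruits, fell by 1.51 (SE 0.19, adjusted p = 2.96e-06) with Sal and by 1.63 (SE 0.19, adjusted p = 1.19e-06) with S + D at 72 h.

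Of the 16 genes of receptor inhibition and turnover, Sal at 72 h had 5 higher and 6 lower, beside 26.3% and 26.8% of all genes. For Das the numbers were 2 and 4, beside 10.5% and 9.36%, and for S + D they were 3 and 7, beside 27.0% and 27.9%. Their medians were -0.14, -0.17 and -0.26, beside 0.004, 0.022 and 0.012 for all genes. ERRFI1, a feedback inhibitor that binds the EGFR kinase, fell in all 3 treatments at 72 h, by 1.72 (SE 0.14) with Sal, by 1.57 (SE 0.14) with Das and by 2.45 (SE 0.15, adjusted p = 1.22e-09) with S + D. Its mean went from 243 CPM ± 15.6 in the control to 45.05 CPM ± 2.17 with S + D. The controls of ERRFI1 differed by time, with 26.2 RPKM at 24 h and 58.2 RPKM at 72 h. At 24 h ERRFI1 was called lower with Das only. CBLB, a ubiquitin ligase for activated receptors, rose in all 6 comparisons, with 1.45 (SE 0.12) for Sal at 24 h and 1.93 (SE 0.24, adjusted p = 2.48e-06) for Sal at 72 h. CBLC, a relative of CBLB, fell by 1.59 (SE 0.18) with Sal at 72 h, and LRIG3, a transmembrane gene of the LRIG family, by 1.73 (SE 0.15). Members of this list therefore moved both ways at the same time.

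**Figure D5:**
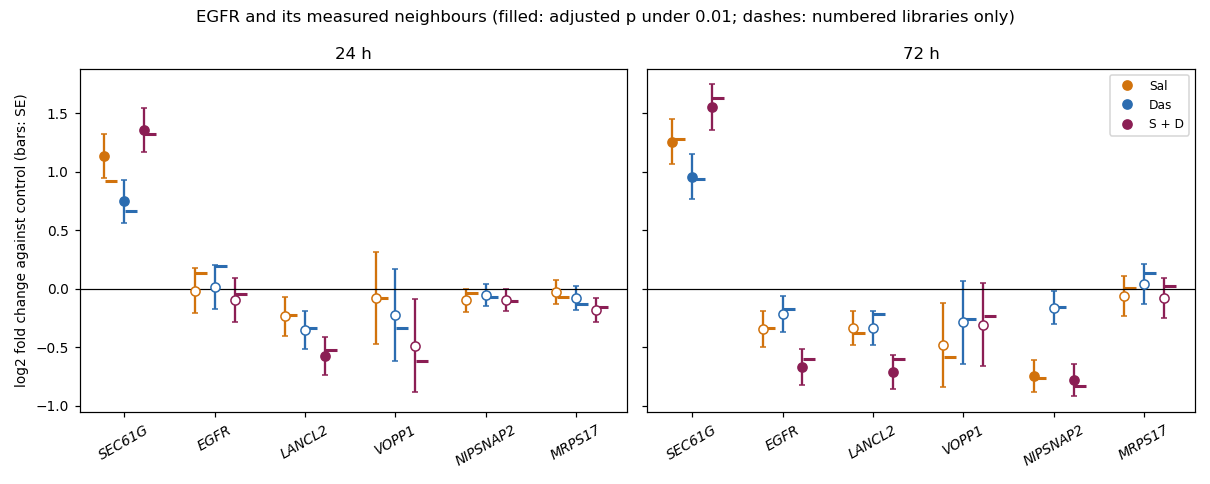
Log2 fold change against the control of the same time (vertical axes) of EGFR and the neighbours on chromosome 7 that passed the filter, with bars for the SE, filled points for an adjusted p under 0.01 and dashes for the value over the numbered libraries. SEC61G is above 0 in all 6 comparisons, and EGFR is at or below 0 over all libraries apart from Das at 24 h (0.01).

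The amplified EGFR gene and its listed neighbours together span 1458 kb of chromosome 7. Of the neighbours, 2, SEC61G and LANCL2, were also high in the order of all genes in the control at 24 h. In the control at 24 h SEC61G, a subunit of the protein channel of the endoplasmic reticulum, had 717.9 RPKM (rank 15) and LANCL2 had 223.9 RPKM (rank 84). NIPSNAP2 had 66.5 RPKM (rank 594) and VOPP1 53.6 RPKM (rank 793). VSTM2A and SEPTIN14 had at most 6 counts in a library. Genomic copies were not measured here. SEC61G rose in all 6 comparisons, from 0.75 (SE 0.18, adjusted p = 0.00728) with Das at 24 h to 1.55 (SE 0.19, adjusted p = 2.27e-06) with S + D at 72 h, where EGFR fell by 0.67. The call with Das at 24 h held with 1 of the 8 libraries left out. LANCL2 fell with S + D at 24 h (-0.57, SE 0.16, adjusted p = 0.00961) and at 72 h (-0.71, SE 0.15, adjusted p = 0.000387), the former held with 1 of the 8 libraries left out, and its controls differed by time, with 1196 CPM at 24 h and 637 CPM at 72 h. NIPSNAP2 fell by 0.74 (SE 0.14) with Sal and by 0.78 (SE 0.14) with S + D at 72 h. VOPP1 was called in no comparison over all libraries, with SE from 0.36 to 0.40, and over the numbered libraries it was lower with Das (-0.34) and S + D (-0.62) at 24 h and with Sal at 72 h (-0.58). MRPS17 was not called. EGFR-AS1, a transcript antisense to EGFR, had at most 7 counts in a library.

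For 8 members, the 2 genes with the most similar pattern were sought by Pearson's r of log2 CPM over the 32 libraries among 17227 genes, as a description. These libraries share conditions, and the unnumbered ones also share deviations. EGFR was most like MAML2 (r = 0.932) and NF1 (r = 0.930), ERBB2 most like B4GALNT3 (r = 0.967) and NINL (r = 0.966), and ERBB3 most like ARHGEF38 (r = 0.940) and RNF152 (r = 0.935). Among the ligands, EREG was most like H2BC15 (r = 0.957) and WDPCP (r = 0.944), and HBEGF most like LINC02762 (r = 0.946) and PRPH (r = 0.942). TGFA was most like ERRFI1 (r = 0.780) and DEPDC4 (r = 0.756). BTC was most like CDCA7L (r = 0.801) and a gene without a symbol (r = 0.7925), and EGF most like GABBR1 (r = 0.7935) and NCKAP1 (r = 0.789). The values for TGFA, BTC and EGF were the lowest of the 8.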

How the data were processed

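RNA from 32 cultures was sequenced by the authors as single-end 50-base reads (TruSeq libraries) and, per the labels and the methods, handled with bcl2fastq 2.19 and STAR 2.5.2 on GRCh37. Cufflinks 2.1.1 and DESeq2 also appear in the submitters' processing notes. The deposited values are raw counts per Ensembl gene, with no normalization. The counting program, its annotation and its use of strand are not given in the sources used here. Counts were scaled with TMM and tested with edgeR 4.0.16 (R 4.3.3, quasi-likelihood, filterByExpr with a minimum count of 10) with all 4 groups of a time point in 1 fit, or all 32 libraries for differences between times. Adjusted p-values (Benjamini-Hochberg) covered all 16357 genes tested at 24 h, 16682 at 72 h or 17227 over both times. A call needs an adjusted p under 0.01, and the study's second cutoff is an absolute log2 fold change above 1.5. AREG and ERBB4 failed the filter and were tested by exact permutation. RPKM is CPM per kilobase of merged exons in GENCODE v44 lifted to GRCh37, and 46537 IDs matched a symbol. The test was checked on simulated counts, drawn independently for each library and without the shared deviations of the unnumbered libraries. P-values measure the spread between these replicates of 1 cell line.

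The members and lists were chosen with earlier results of these data known. All 10 members are named, with genes of the pathway lists that passed both cutoffs at 72 h, and the neighbours of EGFR. Marker genes are given by list. ADAM10, ADAM17, RHBDF1, NCK1, GRB7 and PLCG1 fall outside that rule and were chosen after their values were seen. Numbers 1 to 3 did not pair libraries: same-numbered libraries correlated from 0.135 to 0.321 at 24 h and from -0.03 to 0.253 at 72 h, different numbers from 0.116 to 0.353 and from -0.047 to 0.291. Alternatives were another scaling, no filter, a replicate block, DESeq2 1.42.0, the numbered libraries only, a term for the unnumbered libraries, other sets of libraries in the fit, EGFR left out of the totals, AREG summed with AREGB, both cutoffs, and each library left out.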

Additional observations from a re-analysis of the deposited data

Results flagged for a closer look

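In 66 groups of 4 libraries, 1 library stood apart from the other 3 in 5 groups, where chance gives about 1 in 20. ERBB2 in the control at 24 h was 110 CPM in library 1 against 116.2 to 117.5 CPM, and in S + D at 24 h 139.4 CPM in the unnumbered library against 143.1 to 143.8 CPM. ERBB3 was 132.8 CPM in the unnumbered Das library at 24 h against 163.3 to 168.4 CPM, and 140.7 CPM in the unnumbered S + D library at 24 h against 185.8 to 194.9 CPM. BTC was 2.375 CPM in the unnumbered control library at 24 h against 2.935 to 3.017 CPM.

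The response differed between 72 h and 24 h by edgeR's test of the difference itself for 4 members. For Sal the log2 difference of the responses was -0.88 for ERBB2, -0.73 for ERBB3, 2.81 for EREG and 0.98 for HBEGF. For S + D it was -1.18 for ERBB2, -1.01 for ERBB3, 1.92 for EREG and 0.93 for HBEGF.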

How the results depend on the processing

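No value of a single member changed sign past the threshold in any alternative. Of 837 values under alternatives that keep all replicates or leave out the unnumbered ones, 781 stayed on their side of the threshold. Another 15 lost the call and 41 gained one. With 1 library left out, 1100 of 1152 stayed on their side, 44 lost the call and 8 gained one. Direction was compared only where the main fit or the alternative made a call, so values called in neither could change sign. The counts of members called, 2 with Das at 24 h, 2 with S + D at 24 h, 4 with Sal at 72 h, 6 with S + D at 72 h, 1 in S + D against Sal, 4 in S + D against Das, 5 in Sal against Das and 4 each for the Sal and S + D responses, became 0, 0, 1, 2, 0, 0, 1, 1 and 1 with both cutoffs. The replicate block gave 5 members for S + D at 24 h, 2 for Das at 72 h (1 otherwise) and 2 for S + D against Sal. DESeq2 gave 2 for Das at 72 h, 2 for S + D against Sal and 1 for the interaction (0 otherwise). The numbered libraries alone gave 4 for S + D at 24 h, 0 for Das at 72 h, 1 for control over time and 2 for the Das response (0 otherwise). A term for the unnumbered libraries gave 6 for S + D at 24 h, 2 for Das at 72 h and 2 for S + D against Sal. All 32 libraries in 1 fit gave 1 for S + D at 24 h, 2 for S + D against Sal and 1 for the interaction. Only the 8 libraries compared gave 0 for Das at 72 h and 0 for S + D against Sal. Without the filter 1 was called for S + D at 24 h and 2 for the S + D response. The causes were not tested. With 1 library left out, the counts ran from 0 to 2 for Das at 72 h, 1 to 3 for S + D at 24 h, 5 to 5 for S + D at 72 h, 0 to 1 for S + D against Sal, the interaction and the Das response, 3 to 5 for S + D against Das, 3 to 4 for the Sal response and 2 to 4 for the S + D response. They stayed at 0 for Sal at 24 h and control over time, 2 for Das at 24 h, 4 for Sal at 72 h and 5 for Sal against Das. Depth limits EREG, with 5 to 99 counts, ERBB4 and AREG.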
